A study of Mus musculus with 15 samples.

Results

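The genes of the 4 Hox clusters were described in the colon of interleukin-10 gene-deficient (*Il10*-/-) and C57 mice. Members were chosen by annotated symbol: *Hoxa*, *Hoxb*, *Hoxc* or *Hoxd* followed by a number, plus the antisense transcript *Hoxaas3*. This gave 38 members of 19076 genes measured, read from 49 array features: 11 in cluster A, 10 in cluster B, 8 in cluster C and 9 in cluster D. Colon RNA of 15 mice was hybridized, 1 mouse per array, to 2-colour mouse arrays against a reference RNA pooled from mouse organs and fetuses. The groups were 3 *Il10*-/- and 4 C57 mice at 7 weeks of age, and 4 *Il10*-/- and 4 C57 mice at 12 weeks. The *Il10*-/- mice were B6.129P2-Il10<tm1Cgn>/J, which carry a disrupted *Il10* gene, and the C57 mice were C57BL/6J. All were males that ate AIN-76A diet and had been inoculated by mouth with *Enterococcus faecalis*, *Enterococcus faecium* and intestinal bacteria. *Il10*-/- mice that already showed inflammation at 7 weeks had been left out by the study, so this group holds mice without colitis by histology. The 12-week *Il10*-/- mice had moderate colitis, and the C57 mice of both ages had none. Within *Il10*-/- mice, age therefore cannot be told apart from colitis or from this selection at 7 weeks. The piece of colon held all layers of the wall, and the position along the colon from which it came is not given in the sources used here.

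Hox genes encode homeodomain transcription factors that set position along the body axis of the embryo, and many stay active in adult tissue. In each cluster the genes are numbered by paralogue group, from low numbers used towards the head to high numbers used towards the tail. Along the gut, genes of the high groups are best known from the hindgut, and both the mesenchyme and the epithelium can express Hox genes.

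Each value is a log2 ratio of colon over pool, so 0 means equal signal in both and 1 means a 2-fold higher signal in colon. The ratio is relative to what the pool holds of the same gene. It was therefore compared between mice for 1 gene, never between genes. A ratio near 0 can come from equal amounts or from a probe that was dim in both colours, and the values do not tell these apart. Genes of liver and kidney, which are tissues of the pool, averaged −3.13 to −2.30 and −3.39 to −2.56 over the arrays, so colon is the numerator. A list of 9 epithelial markers averaged 0.47 to 0.87 in the 15 mice, and *Cdx2*, an intestinal transcription factor, averaged 2.20. The single *Il10* feature ranged only over −0.17 to 0.25, and it is not stated whether it lies in the disrupted part of the gene, so it checks nothing about the genotype labels. Differences below are log2 differences ± SE from a limma fit over all genes. Called genes had a fold change of at least 1.5 together with a Benjamini-Hochberg adjusted p below 0.05.

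At 7 weeks of age, a run of neighbouring cluster A genes was higher in *Il10*-/- than in C57 mice. *Hoxa7*, *Hoxa9*, *Hoxa10* and *Hoxa11* and the antisense transcript *Hoxaas3* were called higher, and *Hoxb7* in cluster B was called lower. The 5 higher members are 13.2% of the 38, where 1.40% of all genes were called higher. The 1 lower member is 2.63% of the 38, where 1.01% of all genes were called lower. The groups did not overlap in 8 members that were higher (21.1%, against 10.8% of all genes) and in 8 that were lower (21.1%, against 12.4%). The median difference was −0.05 over the 38 members and −0.01 over all genes. Each of the 6 called members was measured by 1 feature only.

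The promoters of the called cluster A genes are shown because these genes lie side by side and moved in the same direction. Windows run from 250 bases before to 50 bases after the start, on the minus strand of GRCm38.p6, and come from RefSeq. RefSeq windows matched 22 members (24 windows), 4 of them among the called 6. Capitals mark the sequence TTTATG, a Cdx-type site, searched on both strands; Cdx factors are known regulators of Hox genes. The *Hoxa7* window lies at chr6:52218524-52218823, the *Hoxa9* window at chr6:52227321-52227620, the *Hoxa10* windows at chr6:52234890-52235189 and chr6:52240805-52241104, and the *Hoxa11* window at chr6:52245761-52246060.
Hoxa7: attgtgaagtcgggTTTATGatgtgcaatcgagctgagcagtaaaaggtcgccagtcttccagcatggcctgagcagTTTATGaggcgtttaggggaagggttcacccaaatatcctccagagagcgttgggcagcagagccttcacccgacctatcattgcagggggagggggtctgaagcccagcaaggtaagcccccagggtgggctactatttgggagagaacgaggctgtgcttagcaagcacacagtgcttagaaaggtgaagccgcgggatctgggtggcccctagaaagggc
Hoxa9: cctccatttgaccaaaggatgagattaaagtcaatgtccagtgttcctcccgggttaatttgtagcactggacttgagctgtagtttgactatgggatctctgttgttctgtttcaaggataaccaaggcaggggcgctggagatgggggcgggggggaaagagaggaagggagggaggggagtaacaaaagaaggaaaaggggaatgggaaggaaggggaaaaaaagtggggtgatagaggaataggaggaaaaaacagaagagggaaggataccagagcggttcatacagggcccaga
Hoxa10 (lower coordinates): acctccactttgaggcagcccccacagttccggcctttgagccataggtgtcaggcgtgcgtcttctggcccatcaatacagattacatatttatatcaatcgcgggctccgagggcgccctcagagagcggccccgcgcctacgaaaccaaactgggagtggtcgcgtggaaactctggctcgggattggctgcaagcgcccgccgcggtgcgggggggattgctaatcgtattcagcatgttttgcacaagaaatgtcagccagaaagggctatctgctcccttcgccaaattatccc
Hoxa10 (higher coordinates): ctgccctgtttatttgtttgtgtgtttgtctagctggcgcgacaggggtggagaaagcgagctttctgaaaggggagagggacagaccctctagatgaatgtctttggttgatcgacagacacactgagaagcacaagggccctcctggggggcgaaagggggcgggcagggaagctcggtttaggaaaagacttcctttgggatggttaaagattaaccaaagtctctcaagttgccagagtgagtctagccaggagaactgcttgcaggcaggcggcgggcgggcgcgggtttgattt
Hoxa11: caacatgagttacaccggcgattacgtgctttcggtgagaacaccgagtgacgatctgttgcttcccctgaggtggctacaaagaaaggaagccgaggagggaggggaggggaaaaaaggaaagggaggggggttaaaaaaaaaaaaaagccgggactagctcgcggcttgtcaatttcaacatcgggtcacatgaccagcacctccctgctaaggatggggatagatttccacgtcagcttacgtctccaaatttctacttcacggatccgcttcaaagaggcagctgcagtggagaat
The *Hoxa7* window holds TTTATG at 2 places, and the *Hoxa9*, *Hoxa10* and *Hoxa11* windows hold it nowhere. Of the 24 member windows, 5 hold it (those of *Hoxa7*, *Hoxb8*, *Hoxd3*, *Hoxd4* and *Hoxd11*), as do 11.9% of 32851 windows of all genes. A Hox-Pbx-type site, TGATTTAT, which can overlap TTTATG by its last 5 letters, is in 0 of the 24 windows and in 0.977% of all. A STAT-type site, TTCNNNGAA, is in 1 member window (*Hoxd4*) and in 8.30% of all. These are letter matches only.

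*Hoxa7*, a group 7 gene that patterns the trunk, had log2 ratios of 1.05, 1.46 and 1.32 in the 7-week *Il10*-/- mice, against 0.08, −0.32, −1.02 and −1.41 in the 7-week C57 mice. All 3 *Il10*-/- mice were above the pool, while the C57 mice were spread over more than a log2 unit and only 1 of them was above 0. The difference was 1.94 ± 0.29 (3.85-fold, limma adjusted p = 0.000602), the most of any member in either direction. At 12 weeks the ratios were 0.96, 0.75, 0.14 and 0.67 in *Il10*-/- mice, against −0.43, −0.46, −0.18 and 0.31 in C57 mice. The groups overlapped there in 1 mouse of each, and the difference of 0.82 ± 0.27 missed the threshold (limma adjusted p = 0.069). *Hoxa7* was called at 12 weeks when 7-week C57 mouse 43 or 46, 12-week *Il10*-/- mouse 95 or 12-week C57 mouse 66 was left out of the fit.

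*Hoxaas3* is an antisense transcript that overlaps *Hoxa5* and *Hoxa6*. Its ratios were 0.61, 0.81 and 0.66 in the 7-week *Il10*-/- mice, against −0.11, −0.29, −0.17 and −0.34 in the C57 mice of that age. The difference of 0.92 ± 0.10 (1.89-fold) had the lowest adjusted p of all members, 3e-05 by limma. The sense genes beside it differed less: *Hoxa5* by 0.25 ± 0.09 and *Hoxa6* by 0.37 ± 0.15, neither called (limma adjusted p = 0.11 and 0.15), although the mice of the groups did not overlap in either gene. At 12 weeks *Hoxaas3* had −0.30, −0.31, −0.24 and −0.42 in *Il10*-/- mice, against −0.61, −0.43, −0.27 and −0.14 in C57 mice. At that age the *Il10*-/- mice lay within the range of the C57 mice.

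*Hoxa9*, a group 9 gene known for its part in blood cell formation, had −0.22, 0.40 and 0.31 in the 7-week *Il10*-/- mice, against −0.61, −0.61, −0.63 and −0.65 in C57 mice. The C57 mice were nearly equal, and *Il10*-/- mouse 75 lay nearest to them. The difference was 0.79 ± 0.12 (1.73-fold, limma adjusted p = 0.000673). At 12 weeks *Il10*-/- mice had −0.71, −0.76, −0.55 and −0.73, and C57 mice had −0.69, −0.58, −0.47 and −0.32. The difference was then −0.18 ± 0.11, with overlapping groups.

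*Hoxa10*, which has a known role in the uterus and the lumbar spine, had −0.80, −0.36 and −0.21 in 7-week *Il10*-/- mice, against −1.35, −1.60, −1.64 and −1.55 in C57 mice. Every mouse was below the pool, but the *Il10*-/- mice by much less. The difference was 1.08 ± 0.13 (2.11-fold, limma adjusted p = 0.000108). At 12 weeks the ratios were −1.50, −1.77, −1.59 and −1.72 in *Il10*-/- mice, and −1.75, −1.28, −1.35 and −1.47 in C57 mice. They overlapped, with a difference of −0.19 ± 0.12.

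*Hoxa11*, known from limb and kidney development, showed −1.20, −1.04 and −0.75 in 7-week *Il10*-/- mice, against −1.66, −1.92, −1.89 and −1.77 in C57 mice. The order of the *Il10*-/- mice was that of *Hoxa10*: mouse 78 was highest and mouse 75 lowest. The difference was 0.81 ± 0.13 (1.76-fold, limma adjusted p = 0.00099). At 12 weeks *Il10*-/- mice had −2.28, −2.00, −1.92 and −2.14 and C57 mice had −2.26, −1.77, −1.72 and −1.95, a difference of −0.16 ± 0.12 with overlapping groups.

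**Figure D1:**
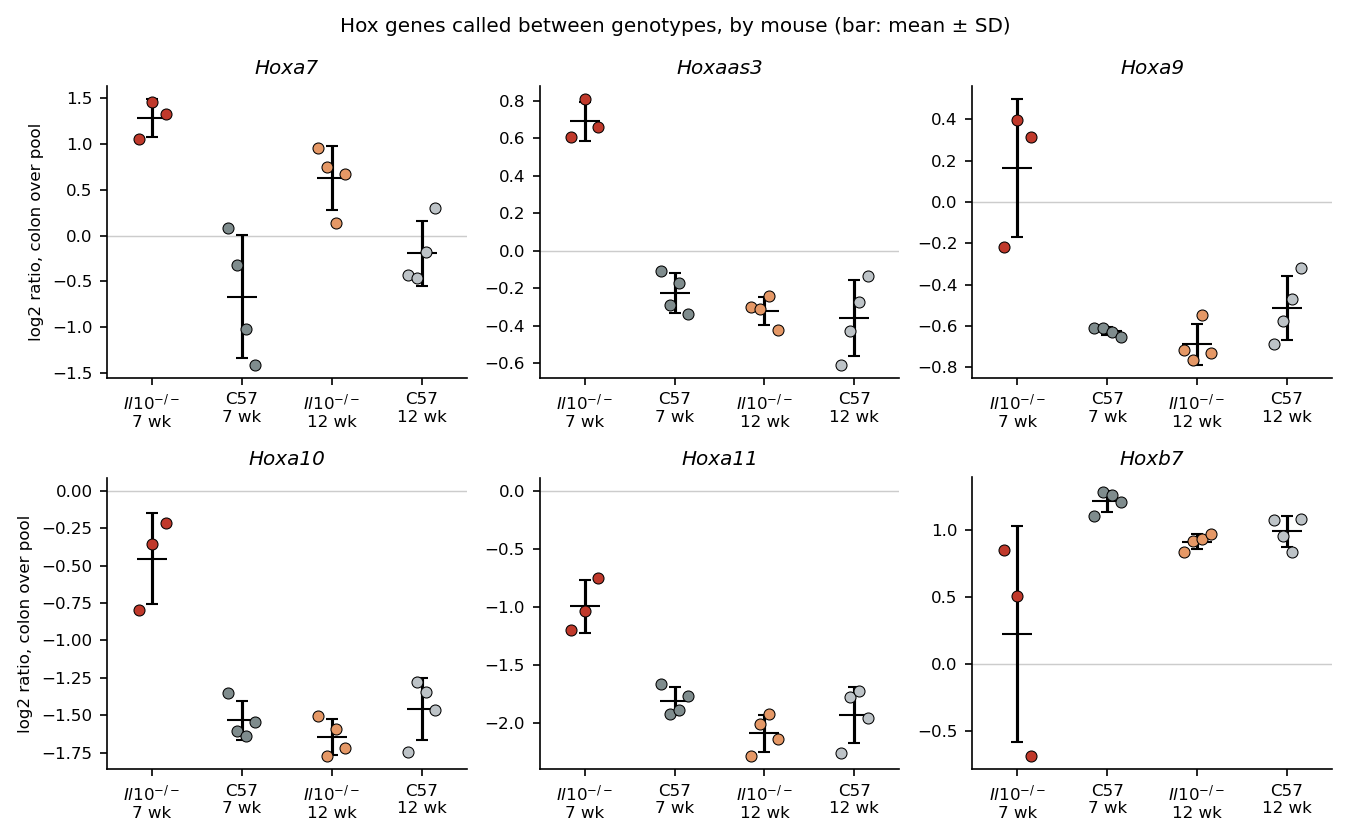
Log2 ratio of colon over pool (vertical axis, a separate scale for each gene) for the 6 Hox members called between genotypes at 7 weeks, with 1 point per mouse and bars at the mean ± SD; groups run from 7-week *Il10*-/- (3 mice) and C57 (4 mice) to 12-week *Il10*-/- and C57 (4 mice each). In *Hoxa7*, *Hoxaas3*, *Hoxa9*, *Hoxa10* and *Hoxa11* the 3 mice of the 7-week *Il10*-/- group lie above all 12 other mice. In *Hoxb7* mouse 78 lies far below its group at −0.69.

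In 6 members (*Hoxaas3*, *Hoxa5*, *Hoxa7*, *Hoxa9*, *Hoxa10* and *Hoxa11*) all 3 of the 7-week *Il10*-/- mice lay above all 12 other mice, which was so for 0.965% of all genes. In *Hoxb2* and *Hoxc6* they lay below all others, as in 1.26% of all genes.

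The genes at both ends of cluster A were not called. *Hoxa2*, *Hoxa3* and *Hoxa4*, of the groups that pattern the hindbrain and neck, differed by 0.07 ± 0.08, 0.06 ± 0.05 and −0.16 ± 0.07 at 7 weeks. The groups overlapped in *Hoxa2* and *Hoxa3*. In *Hoxa4* they did not, with *Il10*-/- mice at −0.08 to 0.03 and C57 mice at 0.06 to 0.18 (limma adjusted p = 0.19). Of all genes, 12.4% did not overlap in this direction. At the posterior end, *Hoxa13*, needed for the hindgut and genital tract, had 0.00, 0.25 and 0.55 in *Il10*-/- mice, against 0.11, 0.15, 0.21 and 0.09 in C57 mice. The groups overlapped, and the difference of 0.13 ± 0.11 was not called. The 2 features of *Hoxa13* gave 0.22 ± 0.13 and 0.04 ± 0.12, neither called. Over cluster A, 10 of 11 members were above 0 at 7 weeks with a median of 0.37, where 46.5% of all genes were above 0.

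Cluster B went the other way for most members: 8 of 10 were below 0 at 7 weeks, with a median of −0.25. Of all 19076 genes, 10199 were below 0. Only 1 member of cluster B was called. *Hoxb7*, the group 7 paralogue of *Hoxa7*, had 0.85, 0.51 and −0.69 in *Il10*-/- mice, against 1.11, 1.28, 1.26 and 1.21 in C57 mice. The groups did not overlap, and the *Il10*-/- mice were spread widely (mean 0.22, SD 0.81, n = 3). The difference was −0.99 ± 0.23 (1.99-fold, limma adjusted p = 0.0147), and without mouse 78 it was −0.54, under the fold threshold (limma adjusted p = 0.00503). It also missed the threshold when only the 7-week groups were fitted (limma adjusted p = 0.0581). At 12 weeks *Il10*-/- mice had 0.84, 0.92, 0.93 and 0.97 and C57 mice 1.08, 0.96, 0.84 and 1.09, a difference of −0.08 ± 0.22.

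Other genes of cluster B were low in mouse 78 as well. *Hoxb6* had 0.63, 0.39 and −0.11 in the 7-week *Il10*-/- mice, against 0.61, 0.69, 0.60 and 0.64 in C57 mice. *Hoxb5*, which takes part in the colonization of the gut by enteric neural crest cells, had 1.12, 0.96 and 0.25, against 1.13, 1.496, 1.26 and 1.32 in C57 mice. Neither was called, at −0.33 ± 0.12 and −0.53 ± 0.17 (limma adjusted p = 0.096 and 0.069). In both genes mouse 78 was the lowest of the 15 mice, and mouse 75 was within or next to the C57 range. *Hoxb8*, the next gene after *Hoxb7*, differed by −0.17 ± 0.09, and its groups overlapped.

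**Figure D2:**
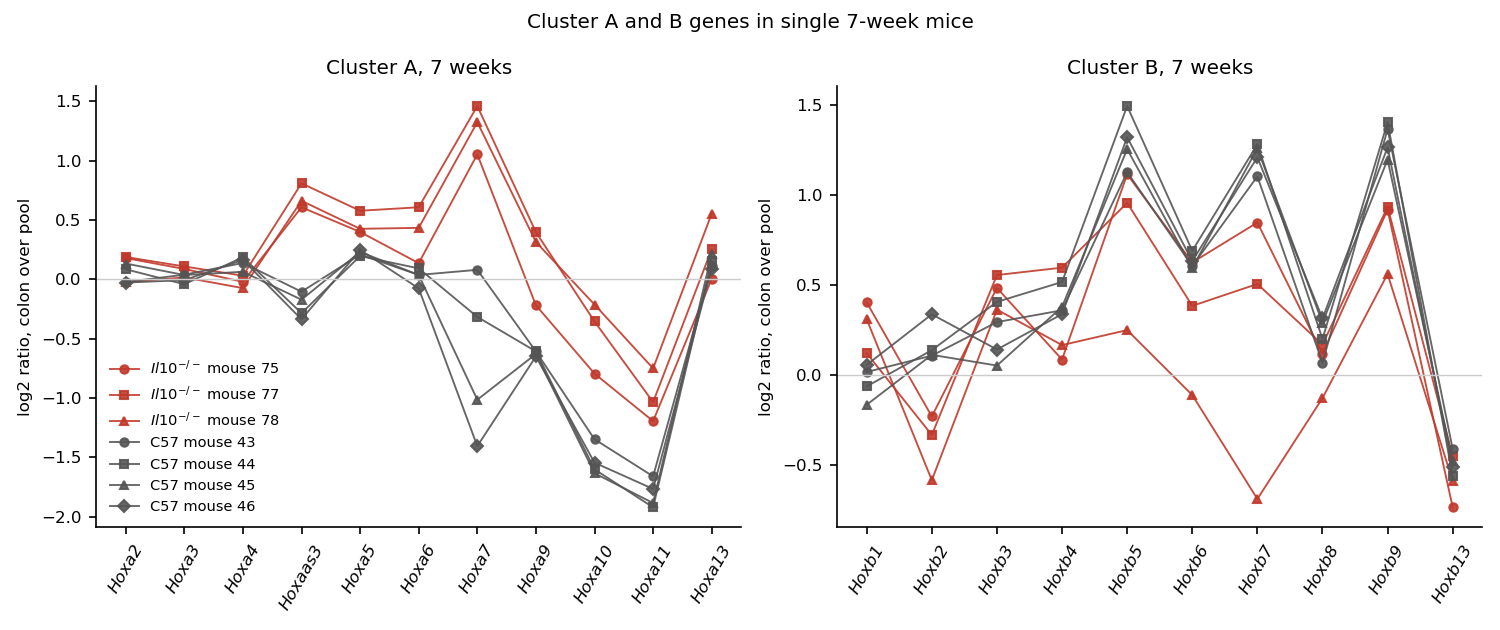
Log2 ratio of colon over pool (vertical axis) for the members of cluster A and cluster B in their order in the cluster (horizontal axis), with 1 line per 7-week mouse, the 3 *Il10*-/- mice in red and the 4 C57 mice in grey. The lines part from *Hoxaas3* to *Hoxa11* and overlap at *Hoxa13*. In cluster B mouse 78 is lowest from *Hoxb5* to *Hoxb9*, down to −0.69 at *Hoxb7*. Levels are not comparable between genes.

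*Hoxb2* and *Hoxb9* passed the adjusted p at 7 weeks with a fold under 1.5. Without the fold threshold 8 members passed, of 38, against 8.20% of all genes. *Hoxb2*, a hindbrain gene, had −0.23, −0.33 and −0.58 in *Il10*-/- mice, against 0.11, 0.14, 0.11 and 0.34 in C57 mice. It did not overlap between genotypes at either age: the difference was −0.56 ± 0.10 at 7 weeks (limma adjusted p = 0.0023) and −0.34 ± 0.09 at 12 weeks (limma adjusted p = 0.0269), when *Il10*-/- mice had −0.03, −0.20, −0.05 and −0.06 and C57 mice had 0.33, 0.30, 0.39 and 0.01. Another feature, annotated to both *Hoxb3os* and *Hoxb2* and left out of the gene values, did not show this difference. It gave −0.07 ± 0.09 at 7 weeks and 0.05 ± 0.08 at 12 weeks, not called at either age. *Hoxb9* had 0.92, 0.94 and 0.56 in 7-week *Il10*-/- mice and 1.37, 1.41, 1.20 and 1.27 in C57 mice, with a difference of −0.50 ± 0.11 (limma adjusted p = 0.0093). Its 2 features gave −0.60 and −0.41, and only the first was called when features were tested singly (limma adjusted p = 0.0031 and 0.094).

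The remaining cluster B members were not called. *Hoxb1* and *Hoxb3* were the 2 above 0 at 7 weeks, at 0.32 ± 0.10 and 0.24 ± 0.08 (limma adjusted p = 0.071 and 0.073). *Hoxb4* differed by −0.12 ± 0.11. *Hoxb13*, the posterior end of the cluster, differed by −0.10 ± 0.10 and was below the pool in every mouse.

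Clusters C and D had no member called at either age. At 7 weeks the 8 cluster C members ranged from −0.17 to 0.02 and the 9 cluster D members from −0.43 to 0.11. The group 9, 10 and 11 paralogues of the cluster A genes were not called: *Hoxc9* differed by −0.17 ± 0.10, *Hoxc10* by −0.10 ± 0.08, *Hoxd9* by −0.05 ± 0.08, *Hoxd10* by −0.19 ± 0.08 and *Hoxd11* by −0.20 ± 0.09. In *Hoxd11* the mice still did not overlap, with −0.43, −0.41 and −0.45 in *Il10*-/- mice, against −0.27, −0.36, −0.09 and −0.21 in C57 mice. The widest difference of cluster D was that of *Hoxd4*, −0.43 ± 0.18, which was not called (limma adjusted p = 0.16). *Hoxc13* differed by 0.02 ± 0.10, and *Hoxd13*, a gene of the anal sphincter and the digits, by −0.04 ± 0.05.

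**Figure D3:**
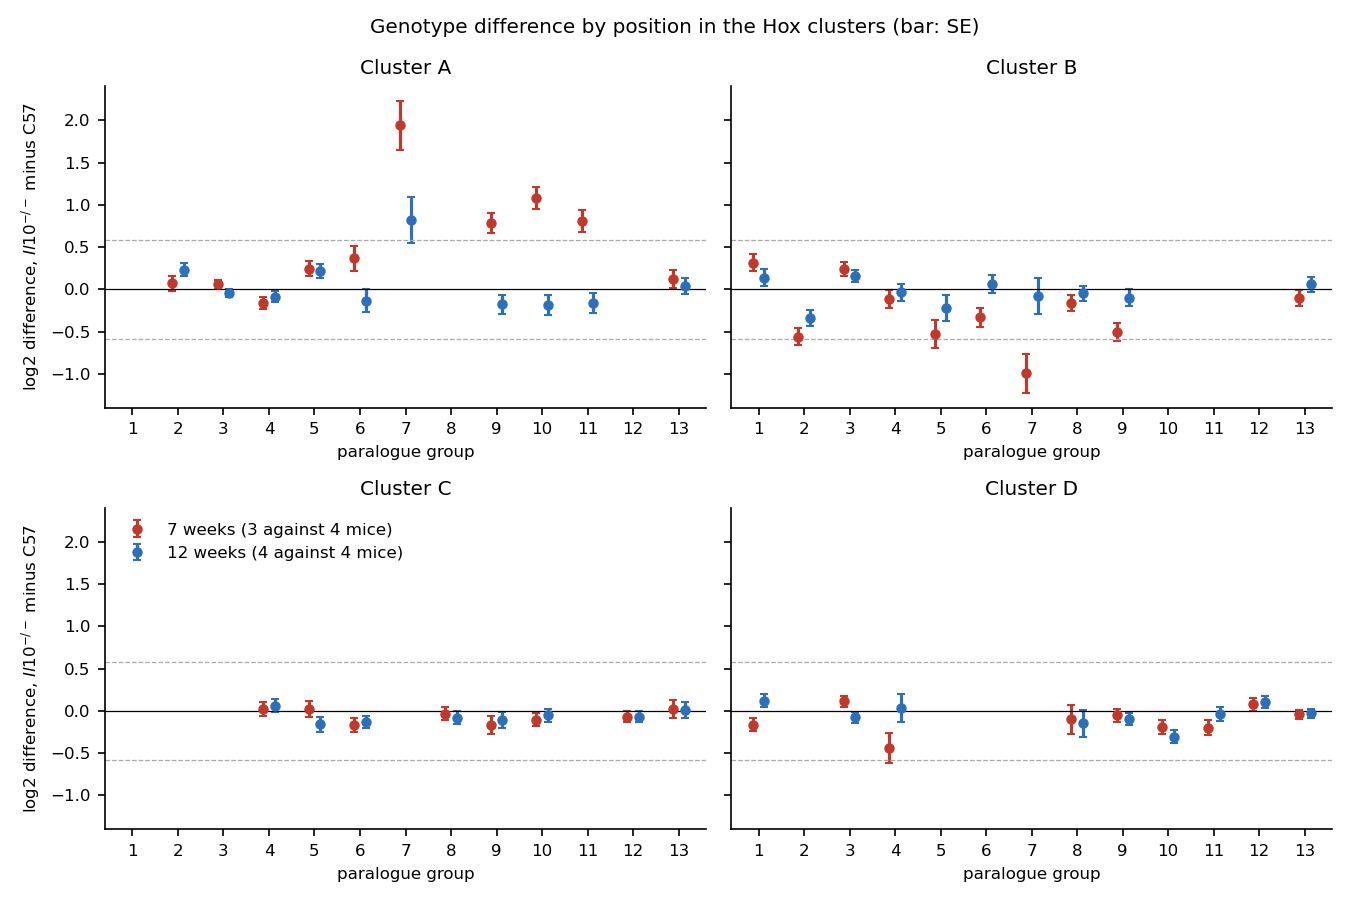
Log2 difference of *Il10*-/- minus C57 mice (vertical axis, bars show the SE) by paralogue group (horizontal axis) in each Hox cluster, for the numbered members, at 7 weeks (red, 3 against 4 mice) and at 12 weeks (blue, 4 against 4 mice); dashed lines mark a 1.5-fold difference. At 7 weeks *Hoxa7* to *Hoxa11* lie above the upper line and *Hoxb7* below the lower one, and at 12 weeks *Hoxa7* alone lies beyond a line, at 0.82 and not called.

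At 12 weeks 0 of 38 members were called by limma, against 2.52% of all genes. At an unadjusted p under 0.05 there were 6 of 38, against 22.9% of all genes. Without the fold threshold *Hoxb2* and *Hoxd10* passed, both lower, where 10.1% of all genes did. *Hoxd10*, which takes part in patterning of the hindlimb and its motor neurons, had −0.41, −0.56, −0.50 and −0.65 in *Il10*-/- mice, against −0.34, −0.10, −0.29 and −0.17 in C57 mice. The groups did not overlap, and the difference was −0.31 ± 0.08 (limma adjusted p = 0.0155). *Hoxb3* was the 1 member whose *Il10*-/- mice all lay above the C57 mice at 12 weeks (6.48% of all genes), and *Hoxb2* and *Hoxd10* were the 2 that lay below (7.05%). The medians of the clusters lay between −0.07 and −0.04, while that of all members was −0.05.

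The change of the genotype difference with age was tested itself, as the 12-week difference minus the 7-week difference. It was called for 4 members, all negative and all in cluster A, where 0.655% of all genes were called negative. They were *Hoxa10* at −1.26 ± 0.18, *Hoxa11* at −0.97 ± 0.18, *Hoxa9* at −0.96 ± 0.16 and *Hoxaas3* at −0.88 ± 0.13 (limma adjusted p = 0.0031, 0.0112, 0.0080 and 0.0039). *Hoxa7* at −1.12 ± 0.40 and *Hoxb7* at 0.92 ± 0.32 were not called (limma adjusted p = 0.16 and 0.15). So a difference between the ages was shown for the first 4 and not for these 2. The *Il10*-/- mice had colitis at 12 weeks and not at 7 weeks, so age and colitis cannot be told apart here. This test shares its mice with the comparisons at each age, and the age comparison within *Il10*-/- mice shares the 7-week mice with both, so these are not independent.

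Within *Il10*-/- mice, the same 4 genes were lower at 12 than at 7 weeks, where 0.121% of all genes were called lower. *Hoxa10* fell by 1.19, *Hoxa11* by 1.09, *Hoxaas3* by 1.01 and *Hoxa9* by 0.85 on the log2 scale (SE 0.10 to 0.13). *Hoxa7* was at −0.65 ± 0.29 and was not called (limma adjusted p = 0.34). Within C57 mice 0 of 38 members were called between the ages by limma, against 0.404% of all genes, and 4 of 38 had an unadjusted p under 0.05, against 13.2% of all genes. In C57 mice the 4 genes differed by 0.11 ± 0.11 (*Hoxa9*), 0.07 ± 0.12 (*Hoxa10*), −0.12 ± 0.12 (*Hoxa11*) and −0.13 ± 0.09 (*Hoxaas3*).

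*Hoxa5*, which takes part in the maturation of lung and gut, was lower at 12 than at 7 weeks in both genotypes. It had 0.14, −0.01, 0.02 and 0.01 in 12-week *Il10*-/- mice, against 0.40, 0.58 and 0.42 in 7-week *Il10*-/- mice. In C57 mice it had −0.40, −0.06, −0.29 and 0.04 at 12 weeks, against 0.21, 0.20, 0.23 and 0.25 at 7 weeks. The ages did not overlap in *Il10*-/- mice (5.61% of all genes) or in C57 mice (3.71%), with the older mice lower. The differences of −0.43 ± 0.09 and −0.40 ± 0.08 passed the adjusted p but not the fold (limma adjusted p = 0.0296 and 0.0286), where 1.38% and 1.07% of all genes passed the adjusted p. The genotype difference was 0.25 ± 0.09 at 7 weeks and 0.22 ± 0.08 at 12 weeks, not called at either age (limma adjusted p = 0.11 and 0.12).

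**Figure D4:**
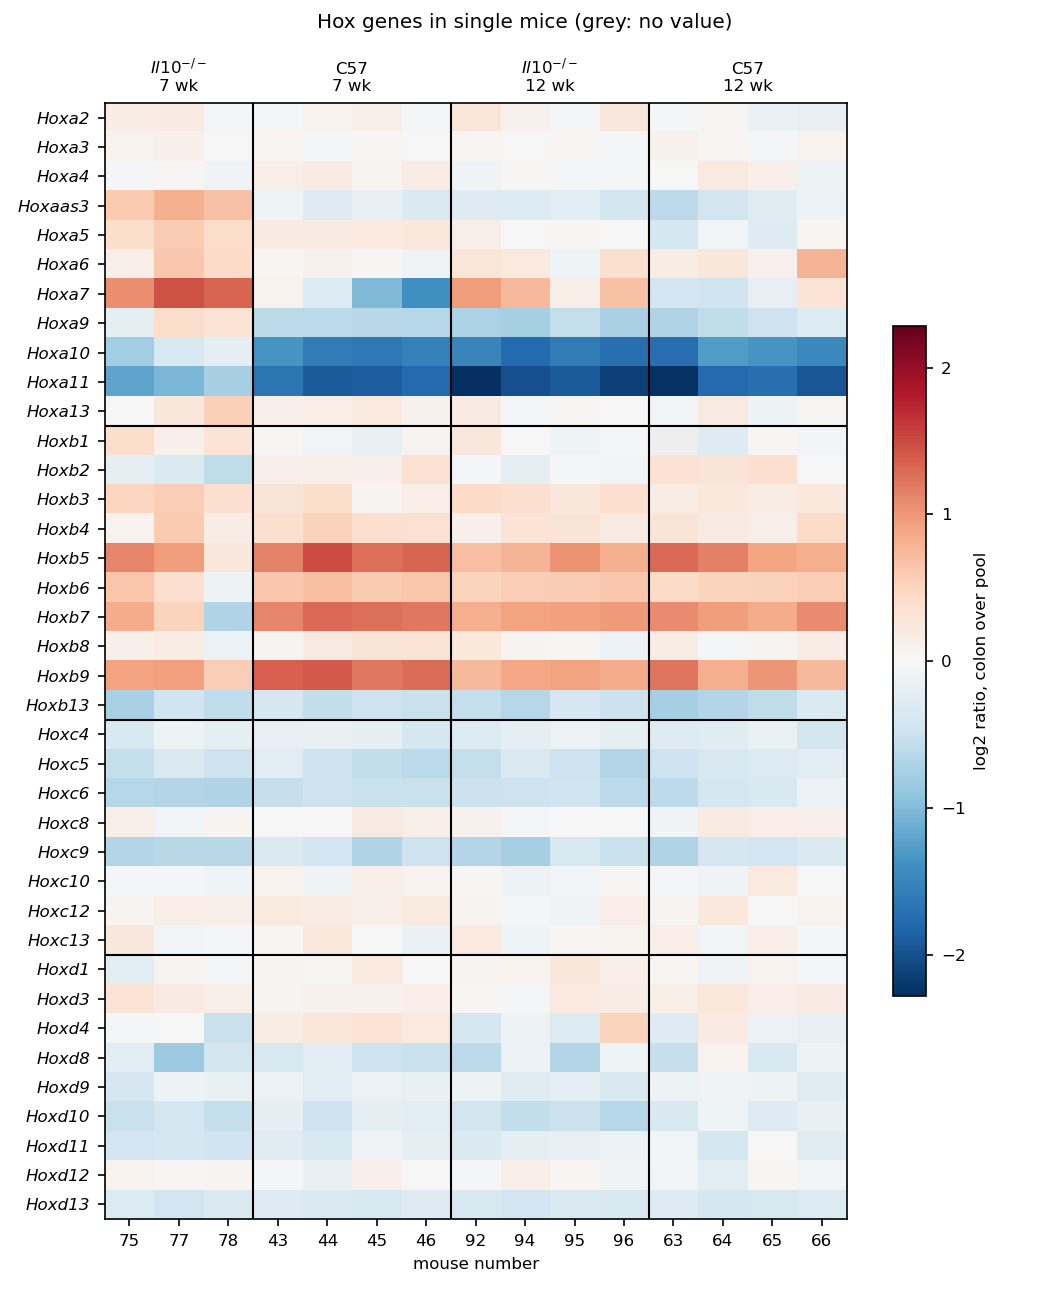
Log2 ratio of colon over pool (colour scale) for the 38 members (rows, by cluster) in the 15 mice (columns, by group); the grey cell is the 1 missing value. The red cells at *Hoxaas3*, *Hoxa5* and *Hoxa7* and the paler blue at *Hoxa10* and *Hoxa11* set the 3 mice of the 7-week *Il10*-/- group apart, and *Hoxb5* is pale and *Hoxb7* blue in mouse 78.

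Relative to the pool, 4 members were above 0 in all 15 mice (*Hoxb3*, *Hoxb4*, *Hoxb5* and *Hoxb9*) and 10 were below 0 in all (*Hoxa10*, *Hoxa11*, *Hoxb13*, *Hoxc4*, *Hoxc5*, *Hoxc6*, *Hoxc9*, *Hoxd9*, *Hoxd10* and *Hoxd13*). The other 24 lay on both sides of 0. Of the 38 members, 9 had 2 features and 1 had 3. Features of 1 gene could differ: at 7 weeks those of *Hoxb6* gave −0.14 and −0.52, and those of *Hoxb8* 0.03 and −0.36. Those of *Hoxd3* gave −0.05 and 0.28, and those of *Hoxd9* −0.25 and 0.15. None of these features was called.

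Genes that work with, control or adjoin the clusters were read from 3 lists, beside 1.40% of all genes called higher at 7 weeks and 1.02% called lower at 12 weeks. Hox proteins bind DNA with Pbx, Meis and Pknox cofactors; of 8 measured, 0 were called at 7 weeks (median −0.09) and 1, *Meis2*, was called lower at 12 weeks, at −0.61 ± 0.10 (limma adjusted p = 0.0012), after −0.44 ± 0.11 at 7 weeks. Of 16 upstream regulators (Cdx factors, retinoic acid receptors and enzymes, Polycomb and trithorax proteins) 0 were called at either age by limma. *Cdx2* differed by −0.23 ± 0.12 at 7 weeks and by −0.57 ± 0.11 at 12 weeks, just under the fold threshold. Of 10 genes beside the clusters, *Skap2*, an adaptor protein gene on the anterior side of cluster A, was called higher at 7 weeks at 0.67 ± 0.07 (limma adjusted p = 4.5e-05) and differed by 0.35 ± 0.07 at 12 weeks. On the other side of cluster A, *Evx1* and the noncoding RNA *Hottip* differed by 0.05 ± 0.09 and −0.03 ± 0.18 at 7 weeks.

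Of the 11 markers of gut region 1 was called between genotypes, and some cell type markers differed as well. The part of these in the Hox differences was not tested. Whether the mice were sampled at the same position along the colon cannot be told from the values. Of 11 genes known to vary along the gut, *Slc10a2*, the bile acid transporter of the terminal ileum, was called lower in *Il10*-/- mice at both ages, at −1.49 ± 0.26 and −1.16 ± 0.24 (limma adjusted p = 0.0019 and 0.0046). *Insl5*, a hormone of the distal colon, differed by 0.33 ± 0.10 at 7 weeks and by −0.13 ± 0.09 at 12 weeks, not called. The change of the *Slc10a2* difference with age was not called (0.33 ± 0.35, limma adjusted p = 0.68). No other gene of the 11 was called between genotypes. Of all genes, 1.01% were called lower at 7 weeks and 1.02% at 12 weeks. The median difference of the 11 was −0.02 at 7 weeks and −0.03 at 12 weeks.

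Among cell type markers at 7 weeks, the mean of 9 fibroblast and gut mesenchyme genes was −0.46 to −0.26 in *Il10*-/- mice, against −0.25 to 0.05 in C57 mice. The mean of 5 endothelial genes was −0.82 to −0.74, against −0.51 to −0.47 in C57 mice. These means did not overlap between genotypes. The medians of the endothelial list did not overlap either (−0.87 to −0.85, against −0.60 to −0.54 in C57 mice), but those of the fibroblast and mesenchyme list did (−0.44 to −0.07, against −0.21 to −0.03 in C57 mice). In each list 1 gene was called lower, where 1.01% of all genes were called lower. These were *Foxf2*, a mesenchymal transcription factor, at −0.74 ± 0.12, and *Emcn*, an endothelial glycoprotein, at −0.78 ± 0.08. Means of 7 immune genes were −0.03 to 0.02 in *Il10*-/- mice, against −0.12 to −0.05 in C57 mice, without overlap, but their medians overlapped (−0.08 to −0.02, against −0.12 to −0.04 in C57 mice), and 0 genes were called by limma at 7 weeks. Means of 9 smooth muscle genes (0.28 to 0.48, against 0.43 to 0.61 in C57 mice), 9 epithelial genes (0.54 to 0.72, against 0.47 to 0.62) and 6 neuronal and glial genes (0.02 to 0.15, against 0.14 to 0.30) overlapped between genotypes. Of the 9 epithelial genes, 1 was called higher in *Il10*-/- mice, where 1.40% of all genes were called higher. The median difference of the 9 was −0.07. In the smooth muscle list and in the neuronal and glial list, 0 genes were called by limma at 7 weeks. Their median differences were −0.19 and −0.16, beside −0.24 for the fibroblast and mesenchyme genes and −0.27 for the endothelial genes. The neuronal and glial means overlapped only narrowly, with the highest *Il10*-/- mean at 0.1451 and the lowest C57 mean at 0.1447.

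At 12 weeks, 3 of 9 smooth muscle genes were called lower in *Il10*-/- mice, where 1.02% of all genes were called lower. These were *Myh11*, *Cnn1* and *Lmod1*, at −0.87 ± 0.21, −0.85 ± 0.23 and −0.66 ± 0.15. The means of the 9 overlapped, with −0.11 to 0.41 in *Il10*-/- mice and 0.12 to 0.72 in C57 mice. The immune means were then 0.08 to 0.19 in *Il10*-/- mice, against −0.08 to 0.02 in C57 mice, and *Laptm5*, a gene of blood cells, was called higher at 0.60 ± 0.08. The fibroblast and mesenchyme means overlapped, with −0.27 to −0.07 in *Il10*-/- mice and −0.31 to 0.00 in C57 mice. Endothelial means, which were apart at 7 weeks, overlapped as well, with −0.69 to −0.57 in *Il10*-/- mice and −0.66 to −0.53 in C57 mice. For 1 of the 5 endothelial genes the 12-week minus 7-week genotype difference was called positive, where 0.493% of all genes were. In whole colon, a change in the number of cells that express a gene and a change in RNA per cell cannot be told apart.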

How the data were processed

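Colon RNA (Cy3) was hybridized with the reference pool (Cy5) to Agilent arrays. The authors applied loess to the ratios of each array, did not correct for background, and deposited log2 ratios of colon over pool for 44290 features (41687 to 42147 values per array, SD 0.44 to 0.51, medians −0.01 to −0.002). The submitters' processing notes name limma, with no version. The number of mice limits the precision. Genotype and age came from the sample titles, since other labels give all arrays the same strain and age.

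A feature was tested where every group had 2 or more values for it (42128 features). Genes took the mean of the features annotated with that gene alone (32016 features, 19076 genes). Of the 38 members, 37 had values on all arrays, and 1 *Hoxb1* value is missing in 12-week C57 mouse 63. Features naming *Hoxaas2*, *Hoxd3os1* or several genes were left out. Genes were fitted in limma 3.58.1 (R 4.3.3) (lmFit, eBayes) with a mean for each of the 4 groups and 11 residual degrees of freedom. Compared were *Il10*-/- with C57 mice at each age, the difference between these, and 12 against 7 weeks within each genotype. These comparisons share samples. P values were adjusted by Benjamini-Hochberg over all genes. Thresholds were a fold of 1.5 and an adjusted p of 0.05, after the methods. Members called in any contrast are given by mouse, as are 8 others chosen after their values were seen (*Hoxa5*, *Hoxa13*, *Hoxb2*, *Hoxb5*, *Hoxb6*, *Hoxb9*, *Hoxd10* and *Hoxd11*). The rest are given by difference or range. Of the other lists, up to 4 called genes a list are named, plus genes chosen after their values were seen (*Cdx2*, *Insl5*, *Evx1*, *Hottip*). Not every called gene of these lists is named. The 1 epithelial gene called at 7 weeks and the 1 endothelial gene called for the interaction are given as counts. Called genes of the pool tissue lists are left out. Members and lists were chosen with earlier results of these data known. The fit was run on simulated data with planted changes. Limits were set there on the false calls and the median estimates, and the power to call planted changes was not checked.

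Alternatives tried were leaving out each mouse, other scaling between arrays (median, scale or quantile), a fit on the compared groups alone, array weights, a robust prior, the most variable feature per gene, complete features, the more variable genes, a fold of 2, no fold threshold, and treat with a 1.5-fold limit.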

Additional observations from a re-analysis of the deposited data

Results flagged for a closer look

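By limma's test of the interaction, the genotype difference was not the same at 7 and 12 weeks in 4 cluster A members. These were *Hoxa10* at −1.26, *Hoxa11* at −0.97, *Hoxa9* at −0.96 and *Hoxaas3* at −0.88 (12-week minus 7-week difference, log2). The *Il10*-/- mice had colitis only at 12 weeks, so age and colitis cannot be told apart. In 113 groups of 4 mice over the 38 members, 3 mice stood apart from the others of their group by Dixon's test, where chance gives about 1 in 20 groups. These were 12-week *Il10*-/- mouse 94 in *Hoxb2* (−0.20, the others at −0.06 to −0.03), 7-week C57 mouse 46 in *Hoxb2* (0.34, the others at 0.11 to 0.14) and 12-week C57 mouse 66 in *Hoxd9* (−0.27, the others at −0.11 to −0.08). The 7-week *Il10*-/- group, which has 3 mice and holds mouse 78, was not tested in this way.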

How the results depend on the processing

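The 14 calls of single members were recomputed under 374 alternatives in all: 351 kept the call, 23 lost it and 0 reversed. At 7 weeks 6 members were called. A fold of 2 left 2 (*Hoxa7* and *Hoxa10*), and limma's treat, which tests against a 1.5-fold change, left 1 (*Hoxa7*). The 4 interaction calls became 1 (*Hoxa10*) at a fold of 2 and 0 by treat, and the 4 age calls within *Il10*-/- mice became 0 by treat. These settings ask for a larger difference by their construction. At 12 weeks the count of 0 became 1 (*Hoxa7*) with only the groups compared or with the more variable genes, and 2 (*Hoxb2* and *Hoxd10*) without the fold threshold, and it ranged from 0 to 1 when 1 mouse was left out. Leaving out 1 mouse gave 5 to 8 calls at 7 weeks (5 without mouse 78), 4 to 5 for the interaction, 4 to 5 between ages within *Il10*-/- mice and 0 within C57 mice. Within C57 mice the count of 0 between ages became 1 (*Hoxa5*) without the fold threshold. *Hoxb7* at 7 weeks ranged from −1.30 to −0.54 when 1 mouse was left out and lost its call without mouse 78 and when only the 7-week groups were fitted; the cause was not tested. No paired analysis was possible because the groups share no mouse numbers. The calls of *Hoxaas3*, *Hoxa9*, *Hoxa10* and *Hoxa11* were lost only at a fold of 2 or by treat. Another scaling moved the median of all genes at 7 weeks from −0.011 as deposited to no more than −0.007.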
